A study of Mus musculus with 12 samples.

Results

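The genes of MHC class II antigen presentation were followed in whole liver of mice lacking interleukin-18 and of wild type mice. The 7 genes were H2-Aa, H2-Ab1, H2-Eb1, H2-DMa, H2-DMb1, Cd74 and Ciita, taken by name from the probe annotation of the arrays. They had 8 of the 55681 distinct probes outside the controls, and all 7 were among the 22128 genes tested. RNA of 12 livers of the strain BALB/c was hybridised to 1-colour Agilent arrays, 3 to a group: interleukin-18 knockout at 12 weeks of age, wild type at 12 weeks, knockout at 6 weeks and wild type at 6 weeks. No treatment was given to any group. The labels call the arrays of a group biological replicates, and the knockout allele, the sex of the animals and the hour of killing are not given in the sources used here.

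MHC class II molecules are surface heterodimers that carry peptides from endocytosed protein to CD4+ T cells. They are made mainly by dendritic cells, B cells and macrophages, and in liver by Kupffer cells, the resident macrophages, and to some extent by sinusoidal endothelium, while hepatocytes normally make little. Their alpha and beta chains fold on the invariant chain Cd74, whose remnant H2-DM later exchanges for peptide, and the genes share a promoter module of X and Y boxes at which the coactivator CIITA docks. Interferon-gamma, whose production interleukin-18 is known to promote, is the classical inducer of Ciita.

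The upstream sequences of 3 of the genes are shown first because they hold that module and because these genes moved together from array to array. Of the 7 genes, 4 had an entry in the RefSeq promoter table on GRCm38.p6. The 250 bases before the start are given 5' to 3' on the strand of the gene, for H2-Aa chr17:34287824-34288073 (minus strand), for H2-Eb1 chr17:34305617-34305866 (plus strand) and for H2-DMb1 chr17:34152941-34153190 (plus strand). The first run of capitals is the X-box core CTNGNAAC and the second the Y box ATTGG, an inverted CCAAT box that binds NF-Y.
H2-Aa: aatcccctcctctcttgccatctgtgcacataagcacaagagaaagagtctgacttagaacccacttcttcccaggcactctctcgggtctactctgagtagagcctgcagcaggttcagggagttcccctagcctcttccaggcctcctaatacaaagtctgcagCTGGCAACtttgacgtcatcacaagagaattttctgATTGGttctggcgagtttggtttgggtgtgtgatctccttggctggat
H2-Eb1: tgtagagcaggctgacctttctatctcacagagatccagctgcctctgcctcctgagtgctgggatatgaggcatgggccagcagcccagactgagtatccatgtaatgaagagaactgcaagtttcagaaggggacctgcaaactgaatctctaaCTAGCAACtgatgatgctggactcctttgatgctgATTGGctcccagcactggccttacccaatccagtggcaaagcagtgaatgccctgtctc
H2-DMb1: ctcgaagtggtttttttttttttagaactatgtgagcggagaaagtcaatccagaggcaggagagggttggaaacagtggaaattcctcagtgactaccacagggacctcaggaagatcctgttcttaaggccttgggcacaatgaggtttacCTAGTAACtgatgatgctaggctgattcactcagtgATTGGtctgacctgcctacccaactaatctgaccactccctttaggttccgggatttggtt

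The X-box core and the Y box lay 28 bases apart in H2-Aa, 27 in H2-Eb1 and 28 in H2-DMb1. The Y box began 48, 59 and 61 bases before the start of these genes in that order. Both motifs were chosen after these windows had been read, and they did not overlap each other in these 3 windows. Searched on both strands of the 32851 windows in the table, the X-box core was found in 10.9% and the Y box in 33.8%, and 0.234% held the core followed by the Y box on 1 strand with a gap of 15 to 35 bases. Neither of the 2 listed starts of H2-DMa held the pair in its 250 bases, 1 of them holding a Y box alone. H2-Ob, another class II gene, held the pair with a gap of 25 bases, whereas H2-Oa, H2-Eb2 and H2-DMb2 did not. H2-Eb2 held 1 core and 1 Y box, but not in that arrangement. For these class II genes the pair was sought on the strand of the gene alone, unlike in the count over all windows.

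The probes lay, by the coordinates of the array files on mm9, on chromosome 17 for 5 of the genes: H2-DMa from 34274300 to 34274863, H2-DMb1 from 34297109 to 34297168, H2-Ab1 from 34406296 to 34406355, H2-Aa from 34421285 to 34421344 and H2-Eb1 from 34453075 to 34453134. Cd74 was probed on chromosome 18 from 60972075 to 60972132 and Ciita on chromosome 16 from 10526568 to 10526627. The second probe of H2-Ab1 shared 51 bases with the first, so the 2 are not independent readings. Which exon each probe lies in was not looked up.

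The level of a gene is the processed signal on the log2 scale, relative to the 75th percentile of its array, so 0 is that percentile and 1 unit is a doubling. Levels are compared between samples for 1 probe, not between genes. The 75th percentiles ran from 349 to 420 scanner units, and 50.1% to 57.7% of spots were well above background. Il18, the targeted gene, had levels of -0.02, -0.12 and 0.05 in the 12-week knockout, against 2.26, 2.15 and 2.50 in the 12-week wild type. It had -0.02, -0.02 and -0.36 in the 6-week knockout, against 2.44, 2.41 and 2.35 in the 6-week wild type, so the genotypes did not overlap at either age. Albumin, transthyretin, Apoa1 and Serpina1a, which hepatocytes make in quantity, were each at or above the level of at least 97.8% of genes on every array. The arrays lay on 2 slides. The 6 knockout arrays were together on slide 2, with 2 arrays (replicates 2 and 3) of wild type livers at 12 weeks. The remaining 12-week array (replicate 1) shared slide 1 with the whole 6-week wild type group. At 6 weeks slide and genotype cannot be told apart.

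In wild type liver, class II transcripts were higher at 12 than at 6 weeks. The chains H2-Aa, H2-Ab1 and H2-Eb1, the peptide exchanger subunit H2-DMb1 and the invariant chain Cd74 rose between 1.99-fold and 2.88-fold, and these 5 of the 7 genes passed an adjusted p of 0.05 (limma, Benjamini-Hochberg over 22128 genes). Over all genes 4.6% passed and were higher. None of the 7 passed as lower, against 4.35% of all genes. The difference was above 0 in 6 of the 7 genes, as in 46.3% of all genes, and its median was 1.24, against -0.02 over all genes. When slide was fitted as a fixed block, which leaves 1 array of the 12-week wild type to carry the estimate, 0 of the 7 passed, and single arrays decided the count, as given after the single genes.

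H2-Aa encodes the alpha chain of I-A, 1 of the classical class II molecules of the mouse. Its levels were 0.91, 0.17 and 1.45 in the 12-week wild type, against -0.71, -0.60 and -0.76 in the 6-week wild type. All 12-week arrays lay above all 6-week arrays, and the difference was 1.53 ± 0.35 (SE, n = 3 each, limma adjusted p = 0.027). In the knockout the levels were 0.34, -0.29 and 1.09 at 12 weeks, against -0.86, -0.46 and -0.51 at 6 weeks. Here too the ages did not overlap, but the difference of 0.99 ± 0.35 (SE, n = 3 each) did not pass (limma adjusted p = 0.13).

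H2-Ab1 encodes the beta chain that pairs with it. It had 5.21, 4.65 and 5.94 in the 12-week wild type, against 3.87, 3.87 and 3.82 in the 6-week wild type, a difference of 1.41 ± 0.35 (SE, n = 3 each, limma adjusted p = 0.033). The 3 arrays of 6 weeks were nearly alike and the 3 of 12 weeks spread over 1.29 log2 units. The overlapping second probe gave 1.42 (limma adjusted p = 0.0444 over all probes tested). In the knockout H2-Ab1 had 4.75, 4.06 and 5.33 at 12 weeks, against 3.55, 4.11 and 3.87 at 6 weeks, where replicate 2 of 12 weeks lay within the 6-week values and the difference was 0.87 (limma adjusted p = 0.171).

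H2-Eb1 encodes the beta chain of I-E, the second classical molecule. It had 4.67, 3.99 and 5.39 in the 12-week wild type, against 3.24, 3.20 and 3.29 in the 6-week wild type, with no overlap and a difference of 1.43 ± 0.38 (SE, n = 3 each, limma adjusted p = 0.0416). In the knockout it had 4.14, 3.39 and 4.78 at 12 weeks, against 2.84, 3.43 and 3.17 at 6 weeks. Replicate 2 of the 12-week knockout lay just below the highest 6-week value, and the difference of 0.96 did not pass (limma adjusted p = 0.166). The partner of this chain, H2-Ea, had a probe that was well above background on 0 of the 12 arrays. BALB/c mice are known to express I-E, and whether the probe detects the BALB/c allele was not tested.

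H2-DMa and H2-DMb1 encode the alpha and beta chains of H2-DM, which removes the invariant chain remnant from the groove. H2-DMb1 had 1.45, 1.23 and 2.04 in the 12-week wild type, against 0.50, 0.64 and 0.61 in the 6-week wild type, and rose by 0.99 ± 0.24 (SE, n = 3 each, limma adjusted p = 0.0332). H2-DMa had -0.64, -1.16 and -0.19 in the 12-week wild type, against -1.59, -1.36 and -1.47 in the 6-week wild type. Its ages did not overlap either, but its difference of 0.81 ± 0.27 (SE, n = 3 each) did not pass (limma adjusted p = 0.0936). In the knockout H2-DMb1 had 0.95, 0.53 and 1.46 at 12 weeks, against 0.32, 0.70 and 0.50 at 6 weeks, and H2-DMa had -1.04, -1.44 and -0.40 at 12 weeks, against -1.52, -1.30 and -1.36 at 6 weeks. For both genes replicate 2 of the 12-week knockout fell among the 6-week arrays.

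Cd74 encodes the invariant chain, which blocks the groove of new class II dimers and guides them to the endosome. It had 4.07, 3.43 and 4.48 in the 12-week wild type, against 2.78, 2.80 and 2.67 in the 6-week wild type, a difference of 1.24 ± 0.31 (SE, n = 3 each, limma adjusted p = 0.0352) with no overlap. In the knockout it had 3.36, 2.80 and 4.02 at 12 weeks, against 2.33, 2.80 and 2.60 at 6 weeks. To 2 decimals the lowest 12-week value there equals the highest 6-week value, and the difference was 0.82 (limma adjusted p = 0.15).

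Ciita encodes the transactivator on which class II transcription depends. Its single probe gave -4.21, -3.46 and -3.05 in the 12-week wild type, against -3.88, -0.06 and -4.03 in the 6-week wild type, and -2.27, -2.70 and -3.36 in the 12-week knockout, against -3.56, -3.59 and -2.50 in the 6-week knockout. All values overlapped except replicate 2 of the 6-week wild type, at -0.06, while the other 11 arrays lay at or below -2.27. The processed signal was 396 on that array and between 22.4 and 73.3 on the other 11, where the spot was dim, and on 1 array of the 6-week wild type it was not well above background.

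Whether the probe reads Ciita alone was not tested. The Ciita difference between the ages in wild type was -0.91 ± 0.89 (SE, n = 3 each, limma adjusted p = 0.557), and 0.39 without replicate 2 of the 6-week wild type. The 6 other genes are summarised without it where this is stated.

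**Figure D1:**
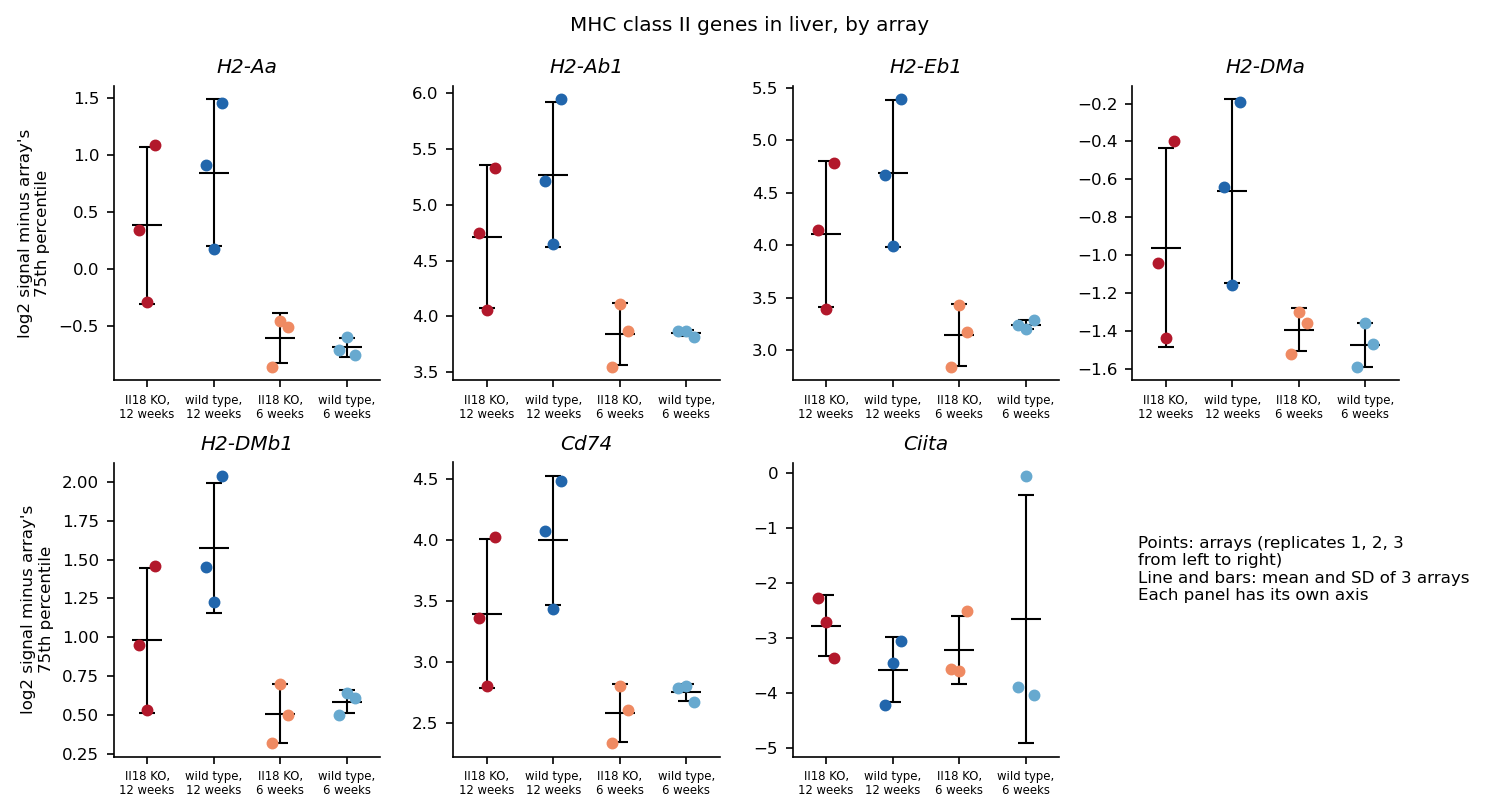
Level of each class II gene on each array (log2 signal minus the array's 75th percentile, 1 panel per gene with its own axis), with 12-week knockout, 12-week wild type, 6-week knockout and 6-week wild type from left to right. Points are the 3 arrays of a group, lines and bars the mean and SD. In all panels but that of Ciita the 12-week wild type has the highest mean and the 12-week arrays spread widely, while Ciita has 1 array of the 6-week wild type at -0.06 far above the rest.

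Of the 7 genes, 6 had 12-week wild type arrays all above the 6-week ones, which 12.6% of all genes had. With the slide as a fixed block 0 of the 7 passed, with differences from 1.36 to 1.59 for the 3 chains H2-Aa, H2-Ab1 and H2-Eb1 (limma adjusted p from 0.14 to 0.208). By design that fit sets 1 array of the 12-week wild type, replicate 1, against the 3 of 6 weeks on the same slide. The count of 5 was 0 without replicate 3 of the 12-week wild type or without any 1 of the 6-week wild type arrays, 1 without replicate 1 of the 12-week knockout, and 3 without replicate 1 of the 12-week wild type or replicate 3 of the 6-week knockout.

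In the knockout the same comparison of 12 with 6 weeks gave 0 of 7 genes past the threshold in either direction, where 3.89% of all genes passed as higher and 2.95% as lower. All 7 differences were above 0, as were 45.2% over all genes, and their median was 0.82, against -0.02 for all genes. Unadjusted p-values were under 0.05 for 4 genes, H2-Aa, H2-Ab1, H2-Eb1 and Cd74, and 11.4% of all genes were higher at that unadjusted level. By unrounded values the ages did not overlap in H2-Aa and Cd74, and 15% of all genes had the 12-week knockout wholly above the 6-week knockout. All 6 knockout arrays lay on slide 2, so slide does not differ between these ages. With arrays weighted by their quality H2-Aa passed at 1.05 (limma adjusted p = 0.0468).

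The age difference was smaller in the knockout than in the wild type for 6 of the 7 genes, but the difference between the genotypes was not resolved. Its median over the 7 genes was -0.48, against 0.01 over all genes. Since these 6 genes moved together within groups, as given below, their shared sign is not 6 separate observations. Knockout minus wild type, the change of H2-Aa was -0.53 with a 95% interval from -1.65 to 0.58, that of Cd74 -0.42 with an interval from -1.39 to 0.56, and that of H2-DMb1 -0.52 with an interval from -1.29 to 0.24. None of the 7 passed (limma adjusted p from 0.379 to 0.618), where 5.41% of all genes passed as higher and 4.81% as lower, and 0 had an unadjusted p under 0.05, which 25.8% of all genes had. Each of the 3 intervals includes 0 and also a loss as large as the rise in wild type.

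At 12 weeks, knockout livers had lower mean levels of 6 of the 7 genes than wild type livers, and no gene passed. The median difference was -0.55, against 0.02 over all genes, and here too the 6 genes are not separate observations. Over all genes 2.49% passed as lower and 5.7% as higher. H2-DMb1 was at -0.60 ± 0.24 (SE, n = 3 each, limma adjusted p = 0.163), the 1 gene with an unadjusted p under 0.05, and 9.09% of all genes were lower at that unadjusted level. Its knockout values of 0.95, 0.53 and 1.46 overlapped the wild type values of 1.45, 1.23 and 2.04. Cd74 was at -0.60 ± 0.31 (SE, limma adjusted p = 0.267), and the other 4 with a lower mean lay between -0.58 and -0.29, while Ciita was at 0.79. The genotypes overlapped in all 7 genes, and 9.68% of all genes had the knockout wholly below wild type. Within slide 2, which holds 2 of the 3 wild type arrays, the 6 differences ran from -0.66 to -0.28 and 0 passed.

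At 6 weeks, class II levels of knockout and wild type livers differed little in the mean. The 6 genes other than Ciita differed by -0.18 to 0.08, and 0 of 7 passed, where 12.1% of all genes passed as higher and 9.05% as lower. An unadjusted p under 0.05 was reached by 0 of the 7 and by 36.9% of all genes. For H2-Ab1 the difference was -0.01 with a 95% interval from -0.78 to 0.76, and for H2-DMb1 -0.07 with an interval from -0.62 to 0.47. Ordered by mean, the 12-week wild type came first in all 6 genes and the 12-week knockout second, and these 2 groups overlapped. The 12-week knockout also overlapped the 6-week knockout in 4 of the 6 genes, while 15% of all genes had it wholly above. The 6-week groups overlapped each other in all 6, and the share of all genes doing so is not given here.

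**Figure D2:**
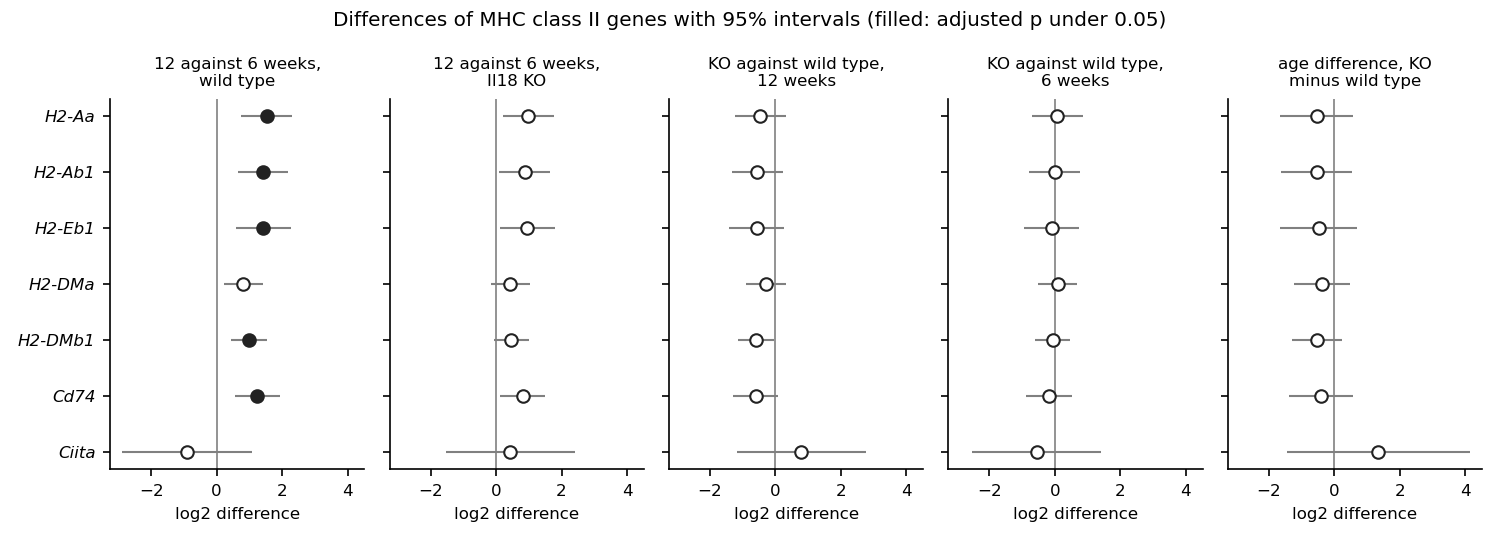
Log2 differences of the 7 genes (points) with 95% intervals (lines) in 5 comparisons, filled where the adjusted p was under 0.05. The 5 filled points, from 0.99 to 1.53, are all in the comparison of 12 with 6 weeks in wild type, and the widest interval in each comparison is that of Ciita.

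The 6 genes other than Ciita rose and fell together between arrays of a group, most clearly at 12 weeks and not in the 6-week wild type. Relative to its group's mean, replicate 3 of the 12-week knockout was higher by 0.48 to 0.71 in the 6 genes and replicate 2 lower, at -0.71 to -0.45. In the 12-week wild type, replicate 3 was higher by 0.47 to 0.70 and replicate 2 lower, at -0.69 to -0.35. At 12 weeks an array that was high in 1 of these genes was thus high in all 6, by about the same amount. In the 6-week wild type the deviations were only -0.11 to 0.11, with both signs among the 6 genes on every array. Over the 12 arrays, after removal of the 4 group means, the 15 pairs among the 6 genes correlated at 0.96 to 0.997 (Pearson), while Ciita correlated with them at -0.06 to 0.06. By rank (Spearman), which gives the widely spread 12-week arrays less weight, the 15 pairs correlated at 0.76 to 0.95. These arrays share RNA, labelling and hybridisation across genes, and across all genes the same measure against the mean of the 6 had a median of 0.06 and a 95th percentile of 0.64.

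**Figure D3:**
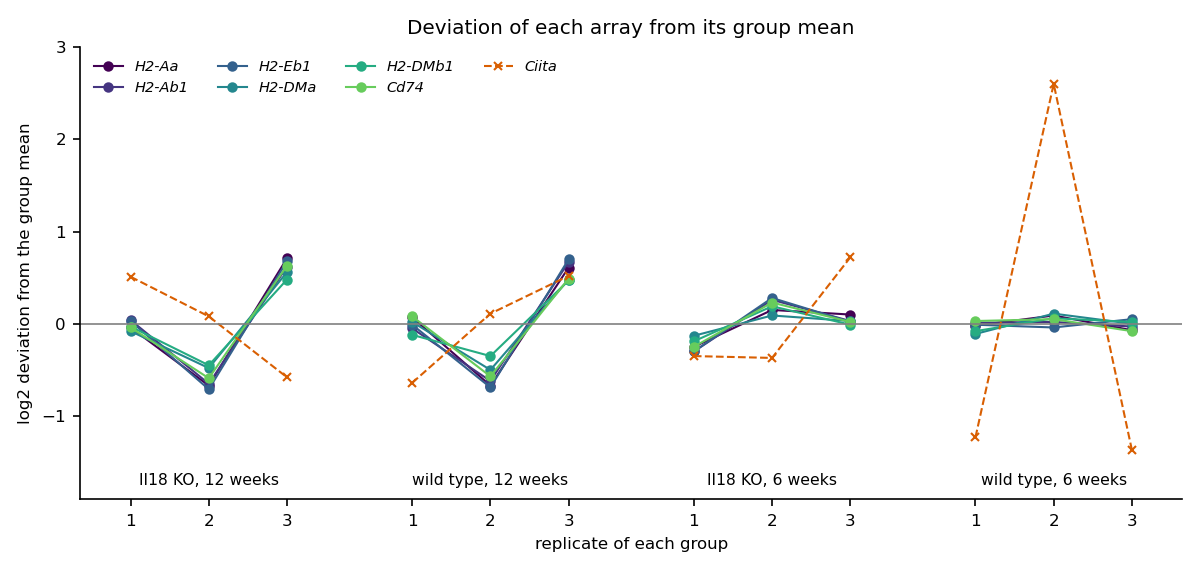
Deviation of each array from its group mean (log2) for the 7 genes. Lines only join the values of 1 gene within a group, as replicates have no order. The 6 solid lines run together, with replicate 3 of both 12-week groups high and replicate 2 low, and the dashed line of Ciita runs apart from them.

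The SDs of the 6 genes were larger in the 12-week than in the 6-week groups. In the 12-week knockout the SD of the 6 genes was 0.46 to 0.70, larger than that of 95.9% to 98.7% of all genes, and in the 12-week wild type it was 0.42 to 0.70, larger than that of 84.7% to 95.7%. In the 6-week knockout it was 0.12 to 0.29 and exceeded 46.5% to 83.6% of genes. In the 6-week wild type it was 0.03 to 0.11, exceeding 5.19% to 46.4% of genes. The median SD of all genes was 0.12 in the 12-week knockout, 0.19 in the 12-week wild type, 0.12 in the 6-week knockout and 0.12 in the 6-week wild type. The 12-week wild type was the only group with arrays on both slides, so its SDs include any difference between the slides. As the 6 genes moved together within groups, their SDs are not separate observations. No test of these spreads was made, as 3 arrays give each SD, and the fit used 1 estimate of spread for the 4 groups.

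**Figure D4:**
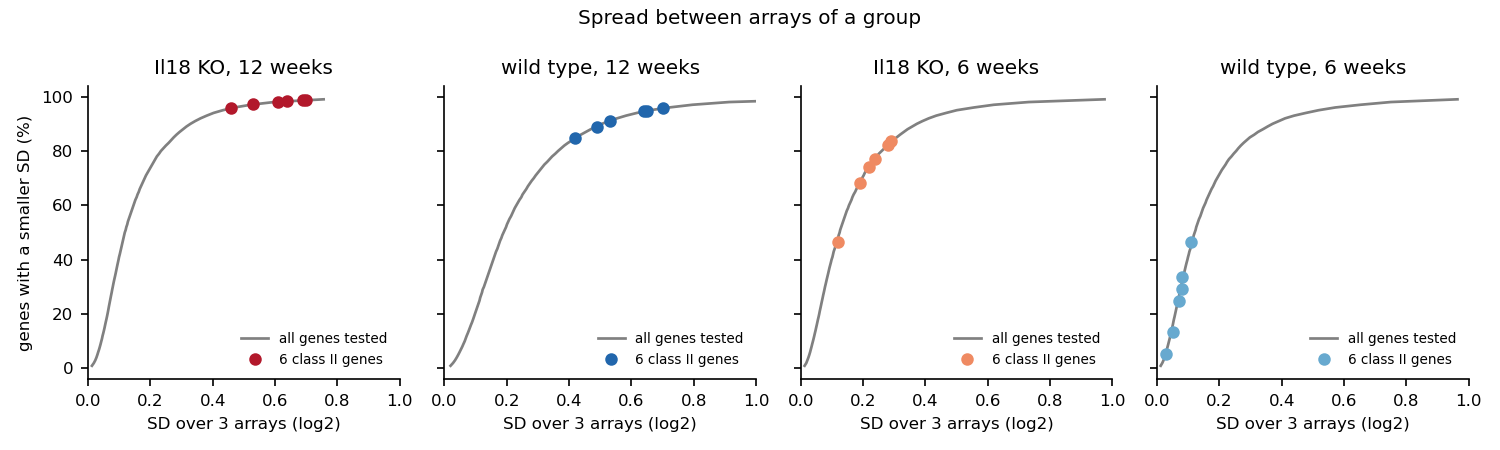
Share of all tested genes with a smaller SD (vertical axis, %) against the SD over the 3 arrays of a group (log2), with all genes as a line and the 6 class II genes other than Ciita as points. The points sit at the upper end of the line in both 12-week groups, at or above 95.9% in the knockout, and at or below 46.4% in the 6-week wild type.

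Genes of the same pathway were followed to see how far the pattern reached. In all lists that follow, each 6-week difference between the genotypes also sets slide 2 against slide 1. Comparisons of the age differences between the genotypes include that 6-week difference. In wild type, age differences set the 12-week arrays, 1 of slide 1 and 2 of slide 2, against 6-week arrays of slide 1. They thus include part of any slide difference, whereas age differences in the knockout lie within slide 2. Of the other class II chains, H2-Eb2 and H2-DMb2 were, like H2-Ea, well above background on 0 of 12 arrays. H2-Oa and H2-Ob, the chains of H2-O, which restrains H2-DM, were tested and did not pass in any comparison. H2-Ob was at -0.53 in the 12-week knockout against wild type (limma adjusted p = 0.2).

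Of the 10 genes that process antigen and degrade the invariant chain, 9 were tested and 0 passed in any of the 5 comparisons. Their median age difference was -0.01 in the knockout and -0.03 in the wild type, so they did not share the size of the class II differences. Cathepsin S (Ctss), which trims the invariant chain in antigen-presenting cells, was at 0.52 between the ages in wild type (limma adjusted p = 0.151) and at -0.01 in the knockout. Within groups Ctss followed the 6 class II genes at 0.95, the highest of the 9 tested, whose median was 0.54 and lowest -0.09. Sppl2a, the protease that clears the last membrane fragment of the invariant chain, had the smallest p of the list at 12 weeks, at -0.17 in knockout against wild type (limma adjusted p = 0.153).

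Of the 7 subunits that bind the X and Y boxes, 6 were tested. Rfxank, a subunit of the RFX complex, was 2.18-fold higher in the knockout at 6 weeks (1.13 ± 0.15, SE, limma adjusted p = 0.000999), where slide and genotype cannot be told apart. It fell by 0.68 between 6 and 12 weeks in the knockout (limma adjusted p = 0.0247). This age difference differed from that in wild type by -1.01 (limma adjusted p = 0.0143). Of the NF-Y subunits, Nfya was higher in the 12-week knockout at 0.50 (limma adjusted p = 0.0393), and its age difference in the knockout exceeded that in wild type by 0.64 (limma adjusted p = 0.0454). Nfyb was higher in the 6-week knockout at 0.36 (limma adjusted p = 0.0283). None of the 6 passed between the ages in wild type, the comparison in which 5 class II genes did, and the list's median there was 0.13.

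Of 9 genes of interferon-gamma signalling 8 were tested. Ifng itself was not: it was well above background on 1 array of the 12-week knockout, 2 of the 12-week wild type, 1 of the 6-week knockout and 0 of the 6-week wild type. Ifngr2, a receptor chain, was lower in the 6-week knockout at -0.47 (limma adjusted p = 0.0174), and Irf1, a transcription factor that interferon-gamma induces, was higher at 12 than at 6 weeks in the knockout at 0.86 (limma adjusted p = 0.0466). Between the ages in wild type 0 of the 8 passed and the median was 0.11. Of 10 GTPases that interferon-gamma induces, Gbp4 at -0.96 (limma adjusted p = 0.0367) and Iigp1 at -0.40 (limma adjusted p = 0.0469) were lower in the 12-week knockout than in wild type. All 10 differences there were negative with a median of -0.35, beside -0.55 for the class II genes and 0.02 over all genes. Gbp7 at -0.46 and Iigp1 at -0.38 were lower in the 6-week knockout (limma adjusted p = 0.0316 and 0.0322), which lay on another slide than the 6-week wild type. Between the ages in wild type Gbp7 fell by 0.56 (limma adjusted p = 0.0262), opposite in sign to the class II genes.

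The 10 MHC class I genes had a median difference of 0.08 between the ages in wild type. Of these, H2-D1, a classical class I heavy chain, rose by 0.35 ± 0.07 (SE, limma adjusted p = 0.0149). Whether that probe also reads other class I heavy chains was not tested. Nlrc5, the class I counterpart of Ciita, was lower in the 6-week knockout at -0.69 (limma adjusted p = 0.0226) and rose by 0.81 between the ages in the knockout (limma adjusted p = 0.0243). Psmb10, an immunoproteasome subunit, and Tapbp, the loading chaperone tapasin, were lower in the 6-week knockout at -0.45 and -0.22 (limma adjusted p = 0.024 and 0.0455). The 6-week groups lay on different slides. Among 6 costimulatory genes, Icosl, the ligand of ICOS on T cells, was 1.96-fold higher at 12 than at 6 weeks in wild type (0.97 ± 0.11, SE, limma adjusted p = 0.000815), and 1.9-fold lower in the 12-week knockout than in wild type (limma adjusted p = 0.00213). Its age difference was lower in the knockout than in wild type by -0.80 (limma adjusted p = 0.00991). Cd80, a ligand of CD28, fell by 0.47 between the ages in the knockout (limma adjusted p = 0.0264).

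**Figure D5:**
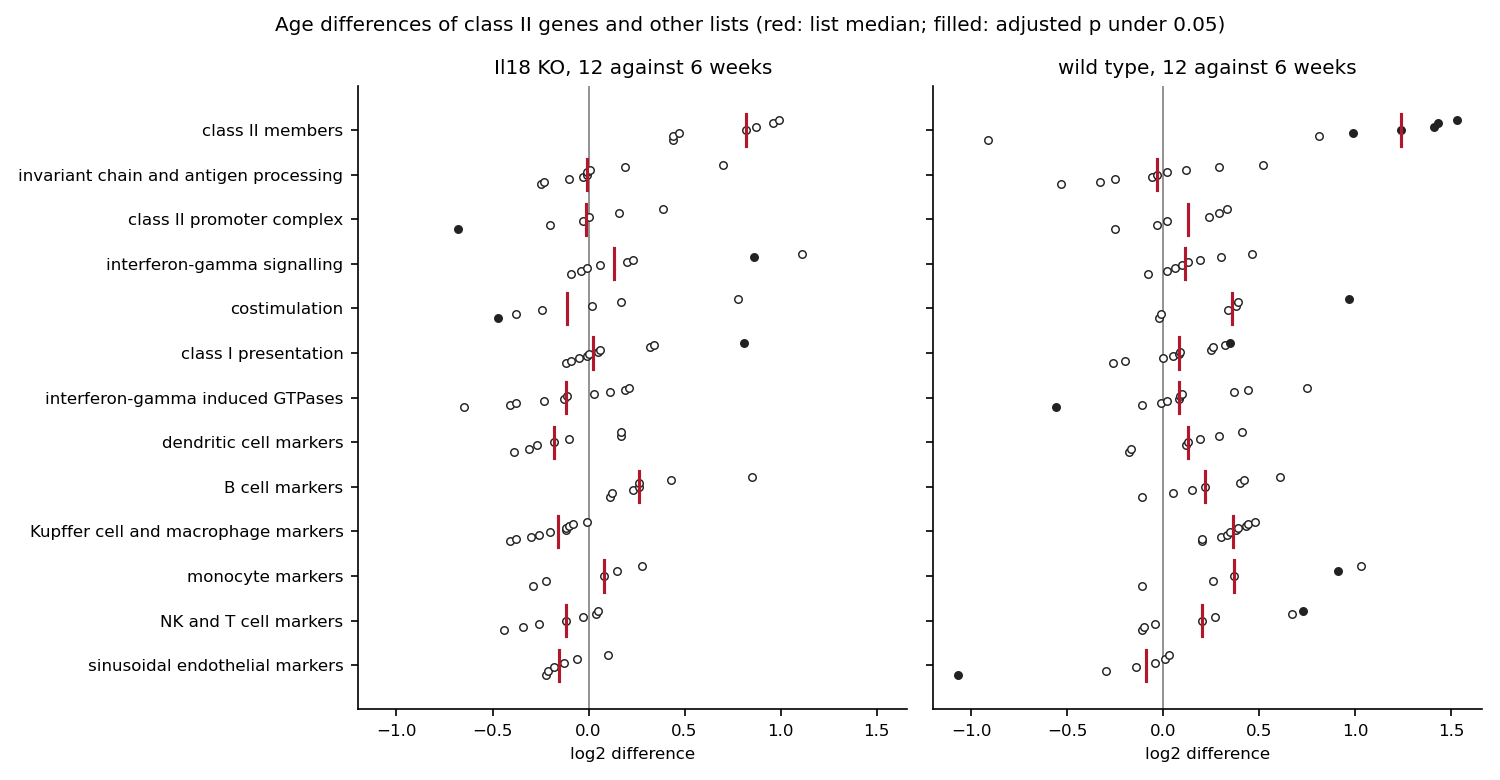
Age differences (log2, 12 against 6 weeks) of single genes of each list in the knockout (left) and the wild type (right), filled where the adjusted p was under 0.05, with red lines at list medians. The class II genes have medians of 0.82 in the knockout and 1.24 in the wild type, and the Kupffer cell markers lie below 0 in the knockout and above 0 in the wild type.

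Markers of the cells that carry class II did not follow one course. In bulk liver, more cells of a type and more RNA per cell cannot be told apart. Of 10 Kupffer cell and macrophage markers, all 10 were above 0 between the ages in wild type, with a median of 0.36, and 0 were above 0 in the knockout, with a median of -0.16, where the 7 class II genes were all above 0. Over all genes 46.3% were above 0 in wild type and 45.2% in the knockout. The summed signal of the 10 markers, in units of the array's 75th percentile, was 107 to 175 in the 12-week knockout, 158 to 209 in the 12-week wild type, 139 to 153 in the 6-week knockout and 122 to 140 in the 6-week wild type. That of the 6 class II genes was 36.8 to 89.7 in the 12-week knockout, 55.7 to 133 in the 12-week wild type, 26 to 37.7 in the 6-week knockout and 32.8 to 33.4 in the 6-week wild type. Folr2, a folate receptor of resident macrophages, was the 1 marker of the list that passed in any comparison, at -0.53 in the 12-week knockout against wild type (limma adjusted p = 0.0365), with an age difference lower in the knockout by -0.67 (limma adjusted p = 0.046).

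Array by array, the macrophage markers went with the class II genes within groups. Their correlation with the mean of the 6 class II genes, after removal of the group means, had a median of 0.87 over the 10 markers. It was highest at 0.94, for Csf1r, the receptor that maintains macrophages. The lowest were Cd68 at 0.53 and Marco at 0.59, under the 95th percentile of all genes at 0.64. Ptprc, which encodes the leukocyte antigen CD45, was at 0.92, and the interferon-gamma induced GTPases had a median of 0.80. The B cell markers had a median of 0.23, the dendritic cell markers 0.37, the NK and T cell markers 0.40, the sinusoidal endothelial markers 0.48 and the monocyte markers 0.66. Within the monocyte list the values ran from -0.10 to 0.93, the highest being that of Lyz2. The part of these cells in the class II differences was not tested.

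Of 10 dendritic cell markers 7 were tested, and of 10 B cell markers 7, and 0 of either list passed in any comparison. Xcr1 and Ccl22 of the dendritic cell list and Blk and Ebf1 of the B cell list were well above background on 0 arrays. The medians between the ages were -0.18 in the knockout and 0.13 in wild type for dendritic cell markers, and 0.26 in the knockout and 0.22 in wild type for B cell markers. Batf3, a transcription factor of cross-presenting dendritic cells, was at -0.58 in the 12-week knockout against wild type (limma adjusted p = 0.0963), and Cd79b, a B cell receptor component, at -0.46 (limma adjusted p = 0.151). Averaged on the log2 scale, the dendritic cell markers lay at -1.49 to -1.13 in the 12-week knockout, -1.13 to -0.89 in the 12-week wild type, -1.28 to -1.14 in the 6-week knockout and -1.15 to -1.01 in the 6-week wild type. Of these 7 markers 6 were below 0 in the 12-week knockout against wild type, where the median over all genes was 0.02. The sum of the dendritic cell markers was set mostly by Siglech, a marker of plasmacytoid dendritic cells, which correlated with the class II genes within groups at -0.72. The dendritic cell markers summed to 78.2 to 96.7 in the 12-week knockout, 73.6 to 91.8 in the 12-week wild type, 70.2 to 85.8 in the 6-week knockout and 90.1 to 98.4 in the 6-week wild type. The B cell markers summed to 1.86 to 1.94 in the 12-week knockout, 1.95 to 2.81 in the 12-week wild type, 1.5 to 1.77 in the 6-week knockout and 1.58 to 2.37 in the 6-week wild type.

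Of 7 NK and T cell markers tested, 4 passed as lower in the 12-week knockout against wild type, as did 2.49% of all genes. The median of the 7 there was -0.85. The T cell receptor component Cd3g was at -1.76 (limma adjusted p = 0.00162), the coreceptor Cd4 at -0.95 (limma adjusted p = 0.0183), Ccl5 at -0.88 (limma adjusted p = 0.0234) and the cytokine receptor chain Il2rb at -0.85 (limma adjusted p = 0.0418). Cd3g was dim, with mean levels of -4.58 in the 12-week knockout and -2.82 in the 12-week wild type. Cd3e, of the same receptor complex, was at -0.34 in the 12-week knockout against wild type (limma adjusted p = 0.244). Cd3g was also lower in the 6-week knockout at -0.65 (limma adjusted p = 0.0352), and its age difference was lower in the knockout than in wild type, at -1.12 (limma adjusted p = 0.025). Ccl5, a chemokine of activated T and NK cells, rose by 0.73 between the ages in wild type (limma adjusted p = 0.0426). It followed the class II genes within groups at 0.94, the highest of the 7 markers, whose median was 0.40 and lowest -0.06. Cd3e, Gzma and Nkg7 passed in no comparison. The markers summed to 38.1 to 49.4 in the 12-week knockout, 65 to 104 in the 12-week wild type, 47.1 to 63.6 in the 6-week knockout and 66.8 to 69.1 in the 6-week wild type. That sum was set mostly by Cd4, with mean levels of 5.12 in the 12-week knockout and 6.08 in the 12-week wild type. Averaged on the log2 scale, the 7 markers lay at -0.01 to 0.34 in the 12-week knockout and 0.74 to 1.08 in the 12-week wild type. At 6 weeks they lay at 0.19 to 0.48 in the knockout and 0.64 to 0.79 in the wild type. Of 5 monocyte markers Cx3cr1, a chemokine receptor, was higher at 12 than at 6 weeks in wild type at 0.91 (limma adjusted p = 0.028) and higher in the 6-week knockout at 0.90 (limma adjusted p = 0.0163). The monocyte markers summed to 4.4 to 6.61 in the 12-week knockout, 5.89 to 9.3 in the 12-week wild type, 5.82 to 6.21 in the 6-week knockout and 6.23 to 7.48 in the 6-week wild type. Of 6 sinusoidal endothelial markers Lyve1, a hyaluronan receptor, fell by 1.07 between the ages in wild type (limma adjusted p = 0.0333). Kdr at -0.53 and Stab1 at 0.32 passed in the 6-week knockout (limma adjusted p = 0.0283 and 0.0167). As for Cd3g and Cx3cr1 at 6 weeks, slide and genotype cannot be told apart there. The endothelial markers summed to 98.6 to 104 in the 12-week knockout, 91.1 to 108 in the 12-week wild type, 108 to 109 in the 6-week knockout and 93.4 to 109 in the 6-week wild type.

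The genes most like the class II set over the 12 arrays were sought among the genes tested, with Pearson's correlation to the mean of the 7 centred levels. Left out were the 7 genes themselves and genes lacking a value on any array. Names that are only accessions, array identifiers, clones, predicted genes or pseudogenes were also left out. The 8 highest were Rgs2 at 0.92, Stat6 at 0.91, Thy1 at 0.90, Sirpb1a, Aoah and Rnf19a at 0.88 each, and Cxcr6 and Rai2 at 0.87 each. Rgs2 is a regulator of G protein signalling. Because these genes were picked for their likeness to class II over all groups, no test of their differences is given. With Ciita left out of the mean, Rgs2, Thy1, Sirpb1a and Aoah were again among the 8 highest, which Gbp2b, an interferon-induced GTPase, led at 0.95. After removal of group means the 8 highest were Pld4, Ctss, Il18bp, Btbd11, Tgtp2, Cd52, Csf1r and Spn, at 0.94 to 0.97. Il18bp encodes the secreted protein that binds interleukin-18. These points share arrays, and the correlations describe these 12 arrays alone.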

How the data were processed

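The authors deposited Agilent Feature Extraction 10.7.3.1 output: per the file headers, a processed intensity per spot (background-subtracted, detrended, low values replaced by a surrogate, not scaled between arrays) and raw mean and background intensities, of 62976 spots. Their value table held the processed intensity, rounded. Control spots and outlier flags were left out, spots of a probe averaged on the log2 scale, and the array's 75th percentile subtracted. Probes were kept if all 3 arrays of some group had them well above background, 1 per gene (highest mean). The 4 group means were fitted in 1 limma 3.58.1 model (R 4.3.3; lmFit, eBayes), checked on simulated data. The number of arrays, the slides and dim signal limit the precision. Symbols were updated from RefSeq tables.

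The members, lists and alternatives were chosen with earlier results of these data known. Named are all members, Il18, the list genes past the threshold (otherwise the smallest p at 12 weeks) and the 8 most alike genes. Alternatives comprised other scalings, background corrections, filters, probe rules, slide and replicate blocks, array subsets and leave-one-out fits.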

Additional observations from a re-analysis of the deposited data

How the results depend on the processing

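The 5 class II genes higher at 12 than at 6 weeks in wild type became 0 with no filter on dim probes, where more genes share the adjustment, 0 with the slide as a fixed block, 0 with it as a random block, 0 within slide 1 and 0 in a fit of the contrast's own groups. The fixed block and the slide 1 subset give the same estimate, which rests on 1 array of the 12-week wild type. Leaving out single arrays gave 0 to 5. Array quality weights gave 2, and 1 in the knockout, where the count was otherwise 0. The weights and the slide 1 subset were chosen after seeing the data, and apart from the filter the causes were not tested. The differences of these 5 genes kept their direction in all 24 alternatives, from 1.22 to 1.86 for H2-Aa and from 0.76 to 1.16 for H2-DMb1. In the other 3 comparisons 0 genes passed under every alternative run. Ciita reached from -1.60 to 0.39 between the ages in wild type.

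Replicate numbers were not taken to pair the samples: the deviations of same-numbered arrays correlated at -0.09 to 0.18, with 2 of 18 pairs over 0.1. The mean deviations of the class II genes without Ciita were alike by number at 12 weeks, at -0.02, -0.59 and 0.61 in the knockout and 0.00, -0.57 and 0.57 in wild type. At 6 weeks they were -0.24, 0.20 and 0.03 in the knockout and -0.03, 0.05 and -0.02 in wild type. Whether this likeness reflects a pairing was not tested. With the replicate number as a block 5 genes still passed. Of 3248 list counts under alternatives, 2926 stayed within 1.5 times the reported count and 322 moved further. Most reported list counts were 0, and those that stayed at 0 are among the 2926. These numbers thus do not show how stable the counts above 0 were. Dim signal limits Ciita, Cd3g, Ifng, H2-Ea, H2-Eb2 and H2-DMb2.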
